A study of Mus musculus with 46 samples.

Results

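The elastic fibre assembly genes described here are 10 genes, Eln, Fbn1, Fbn2, Fbln1, Fbln2, Fbln5, Mfap4, Emilin1, Lox and Loxl1, out of 29871 genes in the deposited table. They were chosen by name, and all 10 were found by symbol. Their levels were read in 46 single cells from the cochlea of C57BL/6 mice at postnatal day 10 with the genotype Dio2creERt2:Ai6, and set beside the levels of Otos, Car3 and Ibsp in the same cells. All cells carried that genotype and were labelled as 1 group, so there was no Cre-negative or separately treated group. Fluorescent cells were picked singly with a pipette, and the Ai6 reporter marks cells in which the Cre at Dio2 has acted, together with their descendants. The cells had 2522853 to 10350249 reads in the listed genes (median 4789573) and 3351 to 7143 genes at 1 CPM (reads scaled to a library total of 1000000) or more. Since 1 group is labelled and the mice are not identified, the 46 cells count as 1 sample. Differences between cells are therefore described without a test. The genes were picked with their CPM in these cells known, so their levels below are given as a description and support nothing beyond it.

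Elastic fibres let tissues recoil after stretch. They consist of a core of cross-linked elastin, which is the product of Eln, laid down on a scaffold of microfibrils built from the fibrillins (Fbn1, Fbn2). Mfap4 and Emilin1 are proteins of the microfibril and its border with elastin. Fibulins (Fbln1, Fbln2, Fbln5) are calcium-binding matrix proteins, of which fibulin-5 is needed to guide elastin onto microfibrils. The copper enzymes lysyl oxidase (Lox) and lysyl oxidase-like 1 (Loxl1) oxidise lysines so that elastin can be cross-linked, and Lox does the same for collagen. Fibulin-1 and fibulin-2 are also found in basement membranes and other matrix.

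Each cell was placed by 3 anchor genes, and these classes are ranges of those genes, not cell types. The Ibsp class had 12 cells with Ibsp, the bone sialoprotein gene of osteoblasts, at 1000 CPM or more. The Otos class had 9 cells with Otos, the otospiralin gene of cochlear fibrocytes, at that level. The Car3 class had 9 cells with Car3, a carbonic anhydrase gene of fibrocytes, at that level without Otos or Ibsp. Car3 reached it in 24 cells in all, including 9 of 9 cells of the Otos class and 6 of 12 of the Ibsp class, while no cell reached it for both Ibsp and Otos. A macrophage class of 4 cells had at least 3 of 7 macrophage markers at 100 CPM or more, and 12 remaining cells met none of these conditions. A gene was called held in a cell when it stood at 10 CPM or more and at 1% or more of its mean over all cells. Of the 460 member values, 175 passed it, with a median of 203 CPM, and the other 285 had a median of 0.372 CPM and a highest value of 9.17 CPM.

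The set was held most fully by the 12 remaining cells and the Car3 class, and least by the macrophage class. The remaining cells held between 0 and 10 members (median 5.5), and the Car3 class between 2 and 8 (median 5). The Ibsp class held 1 to 5 members and the Otos class 1 to 4, each with a median of 3. In the macrophage class, 3 cells held none and cell 45 held Emilin1 alone. Over all cells the median was 3 of 10 members. Cell 42 was the only cell to hold all 10, cell 21 held 9, and cells 13, 17 and 41 held 8, of which cells 13 and 17 were in the Car3 class and the rest among the remaining cells. The remaining cells were not uniform, since cell 20 held no member and cells 34 and 35 held 3 each. Cell 42 had Ibsp at 107 CPM and held 6 of 9 osteoblast markers and 0 of 8 cochlear fibrocyte markers. With the anchors set at 100 CPM it falls in the Ibsp class. The ranges of the remaining cells and the Car3 class overlapped those of the Ibsp and Otos classes. The number of genes at 1 CPM per cell had a median of 5399 in the remaining cells, 4836 in the Car3 class, 5242.5 in the Ibsp class and 4892 in the Otos class. Over 46 cells, Spearman's rho between members held and genes at 1 CPM was 0.24, and between members held and reads it was 0.17. The part of depth in the counts was not tested beyond thinning every cell to 2522853 reads, after which each of the 10 members was held by the same number of cells as before. The limit is in CPM, 7 of the 285 values under it were at 5 CPM or more, and the lowest held value was 13.5 CPM. Thinning could therefore move few values, and it says little about depth.

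**Figure D1:**
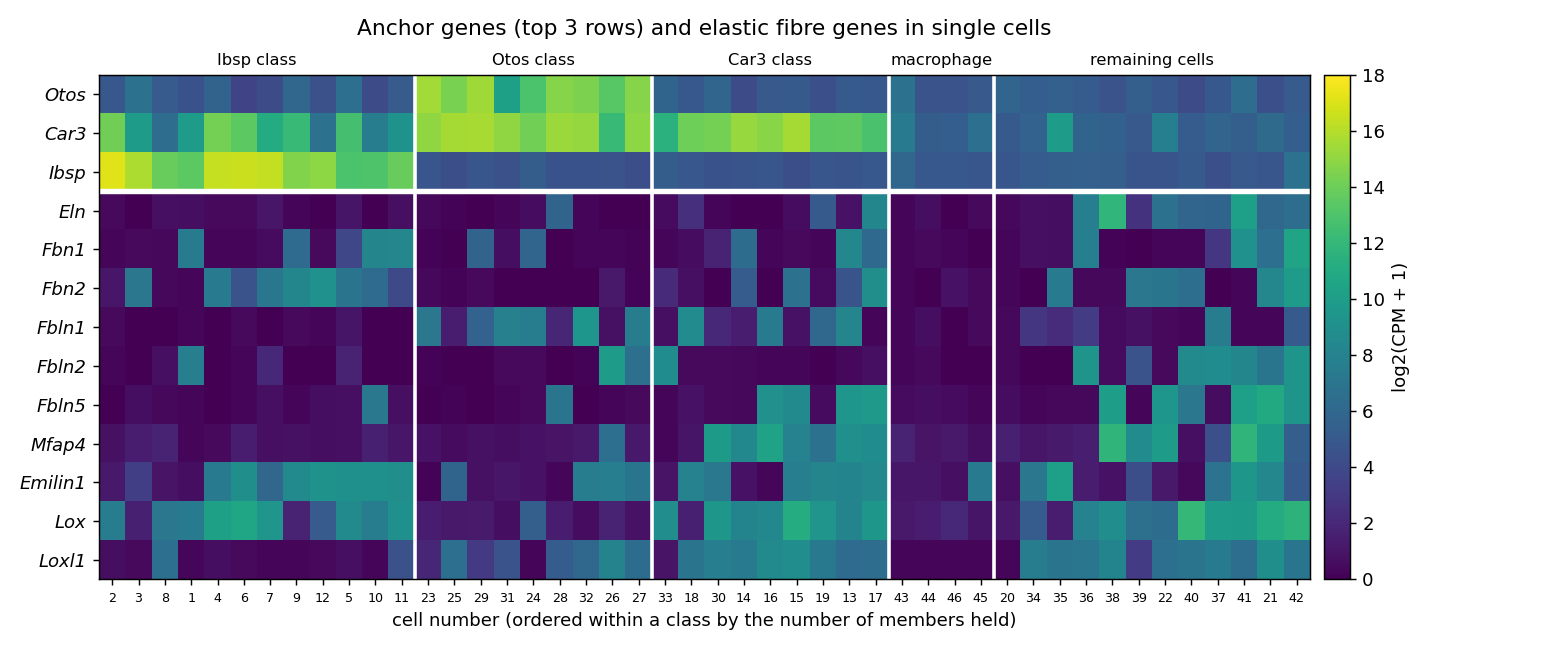
Heat map of log2(CPM + 1) for the anchor genes Otos, Car3 and Ibsp (top rows) and the 10 elastic fibre genes (lower rows) in each of the 46 cells, grouped by class and ordered within a class by the number of members held. Cells 41, 21 and 42 at the right hold 8, 9 and 10 members, and the 4 macrophage cells are dark in all member rows except Emilin1 in cell 45.

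**Figure D2:**
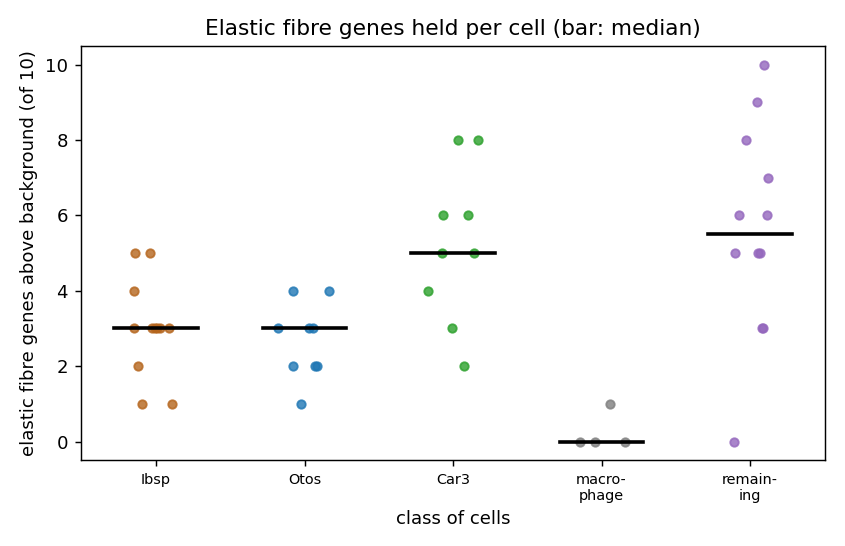
Number of elastic fibre genes held (y axis, of 10) by each cell (point) in the 5 classes (x axis), with the class median as a bar. The medians are 3 in the Ibsp and Otos classes, 5 in the Car3 class, 0 in the macrophage class and 5.5 in the remaining cells, and the ranges of the classes overlap.

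Eln (NCBI Gene 13717, chr5:134702595-134747368 on GRCm38, minus strand) was held by 11 of 46 cells (23.9%, exact 95% interval 12.6% to 38.8%). It was held by 8 of 12 remaining cells, 2 of 9 Car3 cells, 1 of 9 Otos cells, 0 of 12 Ibsp cells and 0 of 4 macrophage cells. In the remaining cells it ranged from 0.323 to 3659.65 CPM with a median of 61.6 CPM, and in the Ibsp class from 0 to 1.16 CPM. The top 2 cells, 38 at 3659.65 CPM and 41 at 1161 CPM, were far above all others, followed by cell 17 of the Car3 class at 309 CPM, and these 3 cells held 88.2% of the Eln CPM summed over the 46 cells. The other 8 cells that held Eln had between 32.6 and 209 CPM. With a limit of 100 CPM, 5 cells held Eln in place of 11, so what is said below of the cells with Eln rests on the lower limit. The remaining cells were split, with 4 of 12 at or below 5.18 CPM.

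Both fibrillin genes were held in the Ibsp, Car3 and remaining cells, and Fbn2 was held by more cells of each. Fbn2, the fibrillin gene known for its part in development, was held by 9 of 12 Ibsp cells (0.198 to 555 CPM, median 96.8 CPM) and 0 of 9 Otos cells (0 to 1.31 CPM). It was also held by 4 of 9 Car3 and 6 of 12 remaining cells, and its highest value was 1000.2 CPM in cell 42. Fbn1 (NCBI Gene 14118, chr2:125300594-125506485, minus strand), which encodes the main fibrillin of adult microfibrils, was held by 5 of 12 Ibsp, 2 of 9 Otos, 3 of 9 Car3 and 4 of 12 remaining cells. Its highest values were 1452 CPM in cell 42 and 539 CPM in cell 41, whereas in the Ibsp class it reached 317 CPM and in the Otos class 58.8 CPM. Of the 46 cells, 24 held at least 1 fibrillin and 9 held both. Per kilobase of annotated exon, the median over the cells that held the gene was 10.5 CPM for Fbn1 and 9.86 CPM for Fbn2, so these medians lay close together.

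Mfap4 (NCBI Gene 76293, chr11:61485431-61488708, plus strand) followed the Car3 class and part of the remaining cells. It was held by 7 of 9 Car3 cells (0.231 to 1304 CPM, median 332 CPM) and 7 of 12 remaining cells (0.646 to 3576 CPM, median 31.4 CPM). In the Ibsp class it stayed at 0.198 to 2.26 CPM, and in the Otos class only cell 26 held it, at 93.5 CPM. Cells 41 and 38, the top cells for Eln, were also the top cells for Mfap4, at 3576 and 3449 CPM. Emilin1 (NCBI Gene 100952, chr5:30913387-30921279, plus strand) was the scaffold gene held most widely, by 26 of 46 cells (56.5%, 41.1% to 71.1%). It was held by 8 of 12 Ibsp cells (median 279 CPM), 6 of 9 Car3 cells (209 CPM), 4 of 9 Otos cells (1.10 CPM) and 7 of 12 remaining cells (26.1 CPM). Emilin1 was highest in cell 35 at 1154 CPM, and macrophage cell 45 had 177 CPM.

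Among the 3 fibulin genes, Fbln1 was held most often by the Otos class, and Fbln2 and Fbln5 by the remaining cells. Fbln1 (NCBI Gene 14114, chr15:85205949-85286294, plus strand) was held by 6 of 9 Otos cells (0.786 to 696 CPM, median 137 CPM), 4 of 9 Car3 cells, 2 of 12 remaining cells and 0 of 12 Ibsp cells, where it was at most 1.04 CPM. Fbln5 (NCBI Gene 23876, chr12:101746565-101819119, minus strand) was held by 6 of 12 remaining cells, 4 of 9 Car3 cells, 1 Otos cell and 1 Ibsp cell. Where Fbln5 was held it was high, with a median of 666.5 CPM and a lowest value of 121 CPM, and its top cells were 21, 41 and 38 at 1974, 1124 and 1052.53 CPM. Fbln2 (NCBI Gene 14115, chr6:91212460-91272540, plus strand) was held by 7 of 12 remaining cells (0 to 642 CPM, median 76.4 CPM) and by 4 cells elsewhere, among them cell 26 of the Otos class with the highest value, 995 CPM. Fbln1 and Fbln5 were each held by 12 cells, and 3 cells held both. That is 25% of each, near the 26.1% of all 46 cells that held each gene.

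The 250 bases before the RefSeq starts of Fbln1 (chr15:85205699-85205948, plus strand) and Fbln5 (chr12:101819120-101819369, minus strand) on GRCm38.p6 are shown because Fbln1 was held by 6 of 9 Otos cells and Fbln5 by 1. Capitals mark matches on either strand to any of 4 motifs. The TATA box was searched with the letters TATAAA. For the GC box the letters were GGGCGG, and for the CCAAT box they were its name. The AP-1 site was searched with the letters TGANTCA.
Fbln1: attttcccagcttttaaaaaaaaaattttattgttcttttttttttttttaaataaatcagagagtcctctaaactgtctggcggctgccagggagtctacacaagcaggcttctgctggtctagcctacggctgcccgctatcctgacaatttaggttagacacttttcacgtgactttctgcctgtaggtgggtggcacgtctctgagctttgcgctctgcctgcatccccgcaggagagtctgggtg
Fbln5: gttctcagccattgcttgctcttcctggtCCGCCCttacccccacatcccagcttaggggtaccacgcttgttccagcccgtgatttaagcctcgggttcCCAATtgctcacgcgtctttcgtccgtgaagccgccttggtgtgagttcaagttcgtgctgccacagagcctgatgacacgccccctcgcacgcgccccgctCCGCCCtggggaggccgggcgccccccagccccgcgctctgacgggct
The Fbln5 window held 2 GC boxes, whose first bases lie at -221 and -48 from the start, and 1 CCAAT box at -150, and the Fbln1 window held none of the 4 motifs. Among 32851 RefSeq windows of this length, 32.7% held a GC box, 33.8% a CCAAT box, 12.4% a TATA box and 6.75% an AP-1 site. The share of G and C was 65.2% for Fbln5 and 46.4% for Fbln1, against a median of 52.4% over all windows, and the dinucleotide CG occurred 21 and 7 times. These are descriptions of the letters and no sites were measured.

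The 2 oxidase genes differed in opposite directions between the Ibsp and Otos classes. Lox was held by 10 of 12 Ibsp cells (1.99 to 1536 CPM, median 185.5 CPM) and by 1 of 9 Otos cells, cell 24 at 42.9 CPM, with a class median of 1.44 CPM. Loxl1 (NCBI Gene 16949, chr9:58287723-58313212, minus strand) was held by 2 of 12 Ibsp cells (0.194 to 95.1 CPM, median 0.399 CPM) and by 6 of 9 Otos cells (0.174 to 261 CPM, median 36.3 CPM). The Car3 class and the remaining cells had both enzymes. Lox was held by 8 of 9 Car3 and 10 of 12 remaining cells, with medians of 463 and 355 CPM, and Loxl1 by the same numbers, with medians of 153 and 124 CPM. Both oxidases were held together by 7 Car3 cells, 9 remaining cells, 2 Ibsp cells and 0 Otos cells. Lox was the member with the highest single value, 4065 CPM in cell 40, followed by 3236 CPM in cell 42. Fbn2 and Lox lie on chromosome 18.

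**Figure D3:**
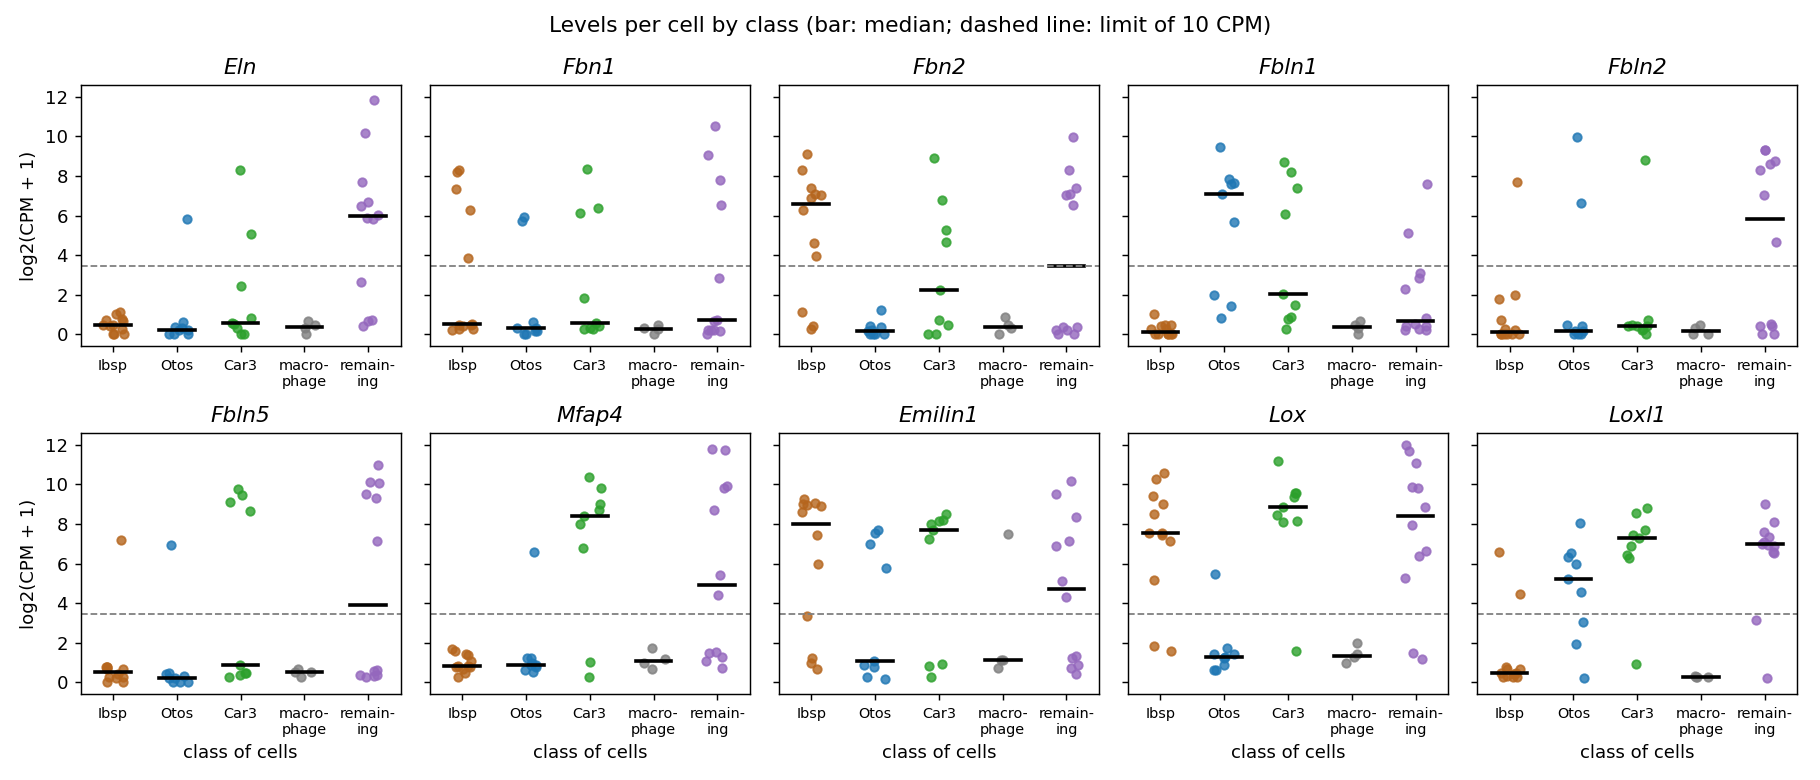
Level of each elastic fibre gene as log2(CPM + 1) (y axis) in each cell (point) of the 5 classes (x axis), with class medians of the log2 levels as bars and the limit of 10 CPM as a dashed line. Most genes are either near 0 or well above the limit in a cell. Lox is held by 10 of 12 Ibsp cells and Loxl1 by 2, while in the Otos class Lox is held by 1 of 9 cells and Loxl1 by 6.

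The classes were set against each other by a rule of size. A gene passed when its mean log2(CPM + 1) differed by at least 2 and it stood at 1 CPM or more in at least 75% of the cells of the higher class. The rule thus counts values from 1 to 10 CPM, at which a gene is not called held. Emilin1 reached 75% of the Ibsp class only with such values, since 8 of 12 cells held it. Fbln1 and Loxl1 did so in the Otos class, where 6 of 9 cells held each. Between the Ibsp and Otos classes, 3 of the 10 members passed as higher in Ibsp cells, where 4.39% of 11447 filtered genes passed in that direction. These were Lox with a mean of 7.17 ± 2.95 (SD over cells, n = 12) against 1.64 ± 1.48 (n = 9), Fbn2 with 5.21 ± 3.11 against 0.26 ± 0.39, and Emilin1 with 6.12 ± 3.54 against 3.47 ± 3.40. The differences were 5.52 for Lox, 4.94 for Fbn2 and 2.65 for Emilin1, of which that of Emilin1 was smaller than the SD within each class. Higher in Otos cells were 2 members, against 4.67% of all genes, namely Fbln1 (difference -5.26) and Loxl1 (-3.35). The median difference was -0.15 over the 10 members and 0.13 over all genes, since members lay on both sides.

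The Car3 class differed from the Otos class mainly in Lox and Mfap4, although both classes have high Car3. Lox had a mean log2 level of 8.30 ± 2.68 in Car3 cells and 1.64 ± 1.48 in Otos cells, so that Otos minus Car3 was -6.66. Mfap4 had 6.93 ± 3.70 against 1.53 ± 1.90, and Otos minus Car3 was -5.40. Loxl1 only just passed at -2.05, and its call was lost when any 1 of the 8 cells 14, 15, 16, 19, 23, 24, 29 and 30 was left out. With it, 3 of 10 members were higher in Car3 cells, against 2.11% of all genes, and 0 were higher in Otos cells (3.15% of all genes). Fbln1, at 1.53, passed as higher in Otos cells when cell 13, 18, 25 or 26 was left out, and Emilin1, at -2.07, as higher in Car3 cells when cell 14, 16 or 33 was left out. The median difference, Otos minus Car3, was -2.06 over the members and 0.05 over all genes, and 8 of 10 members had a lower mean in the Otos class. Against the Ibsp class, Car3 cells were higher in Mfap4 and Loxl1 (Ibsp minus Car3, -5.95 and -5.40), which is 2 of 10 members against 3.29% of all genes. Fbln1, at -3.73, was added when cell 15, 17 or 33 was left out. No member was higher in Ibsp than in Car3 cells by this rule (4.28% of all genes), and Fbn2 lay just under it at 1.97, so that it passed when cell 1, 2, 6, 8, 11, 13, 14, 15 or 17 was left out.

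After the data were seen, the 12 remaining cells were set against the 30 cells of the Ibsp, Otos and Car3 classes together. Of the 10 members, 3 were higher in the remaining cells, against 1.49% of all genes, and none was lower (0.847% of all genes). Eln had a mean log2 level of 5.43 ± 3.69 (n = 12) against 1.05 ± 1.92 (n = 30), a difference of 4.37. Mfap4 and Loxl1 differed by 2.74 and 2.44. Fbln2 (3.36) and Fbln5 (2.97) had larger differences than these but stood at 1 CPM or more in only 58.3% and 50% of the remaining cells. Mfap4 and Fbln2 were each held by 7 of 12 remaining cells. Mfap4 reached 91.7% of them at 1 CPM or more only with values under the limit of 10 CPM. Eln was held by 8 of 12 remaining cells and stood at 1 CPM or more in exactly 75% of them, counting cell 39 at 5.18 CPM. Its call was lost when any 1 of the 9 cells 21, 22 and 36 to 42 was left out. Lox, at 1.83, passed when cell 15, 20, 34 or 35 was left out. Against the Car3 class alone, Eln was the only member higher in the remaining cells, by 3.41 (2.04% of all genes), and its call was lost when any of the same cells was left out. None of the members was higher in the Car3 class (2.5% of all genes), although Fbln1, at -1.99, passed without cell 15, 17 or 33 and Mfap4, at -1.26, without cell 18 or 33. The differences of Lox (-0.62), Loxl1 (-0.33) and Fbln5 (0.58) were less than the SD within each group.

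Across the 46 cells, no member followed Otos, Car3 or Ibsp closely. Of 30 rank correlations, the strongest was that of Fbln1 with Ibsp (Spearman's rho -0.59), followed by Lox with Otos (-0.54), Loxl1 with Ibsp (-0.47), Fbln1 with Car3 (0.46), Fbn2 with Ibsp (0.43) and Eln with Car3 (-0.42). With all values under the limit set to 0 these became -0.34, -0.49, -0.49, 0.40, 0.36 and -0.36. The mean log2 level of the 10 members had a rho of -0.36 with Otos, -0.12 with Car3 and -0.17 with Ibsp. The 46 points come from 1 experiment and many lie near 0, so these values are given without a p-value. Within classes, 120 such correlations were computed, and the 3 of largest size, named next, were picked after they were seen. In the 9 Otos cells, Fbln2 and Car3 had a rho of -0.93, which was -0.64 with values under the limit set to 0, and 2 of these cells held Fbln2. In the 9 Car3 cells, Loxl1 and Car3 had a rho of 0.87. In the 12 Ibsp cells, Fbn1 and Ibsp had a rho of -0.75, with Ibsp at 7618 to 24483 CPM (median 11169.7 CPM) in the 5 cells that held Fbn1 and at 14163 to 145198 CPM (median 84807 CPM) in the other 7. The ranges overlapped.

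**Figure D4:**
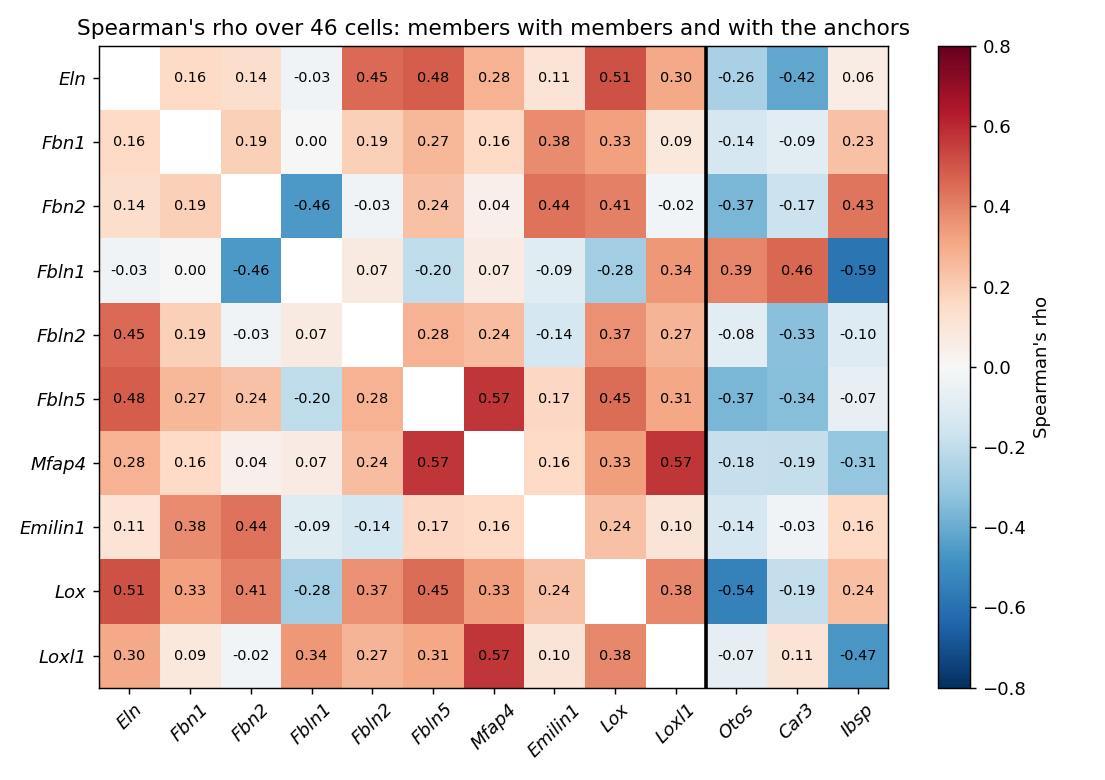
Spearman's rho over 46 cells between each pair of the 10 elastic fibre genes (left block) and between each member and Otos, Car3 and Ibsp (right 3 columns), with red for positive and blue for negative values. Fbln5 and Mfap4, and Mfap4 and Loxl1, have the highest rho, 0.57, and Fbn2 and Fbln1 the lowest among members, -0.46.

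Among the members themselves, 37 of 45 pairs had a rho above 0. The median over the pairs was 0.24, beside 0.01 over all pairs of filtered genes. The highest values were 0.57 for both Mfap4 with Loxl1 and Fbln5 with Mfap4, then 0.51 for Eln with Lox and 0.48 for Eln with Fbln5. The pair Fbn2 and Fbln1 had the lowest, -0.46, and 2 of the 19 Fbn2 cells, which are also 2 of the 12 Fbln1 cells, held both. The next counts have no share over all genes beside them, and 8 of the 11 cells with Eln were remaining cells. They therefore overlap with the class difference above. Cells that held Eln often held the oxidases, Fbln5 and Mfap4. All 11 held Loxl1, 10 held Lox, 8 held Fbln5 and 8 held Mfap4. Among the 35 cells without Eln, 15 held Loxl1 (42.9%), 19 held Lox (54.3%), 4 held Fbln5 (11.4%) and 7 held Mfap4 (20%). The shares were close for Emilin1 (6 of 11 and 20 of 35 cells), Fbln1 (3 of 11 and 9 of 35) and Fbn2 (5 of 11 and 14 of 35), while Fbln2 was held by 6 of 11 and 5 of 35 and Fbn1 by 5 of 11 and 9 of 35. A kit of Eln, at least 1 fibrillin, Fbln5 and at least 1 oxidase was held by 6 cells, of which 5 were remaining cells and 1, cell 17, was in the Car3 class.

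The 11 cells with Eln, like the other 35, held few markers of vascular smooth muscle, a classical source of elastin in arteries. Of 7 markers of smooth muscle and pericytes, a cell with Eln held at most 2. Myh11 and Notch3 had no read in any of the 11, and Acta2 and Rgs5 stood at or below 0.992 and 0.144 CPM. Tagln was held by 3 of 11 and 3 of 35 cells, and Des by 2 of 11 and 5 of 35. Cspg4 was held by 1 of 11 and 2 of 35. Among the other 35, Acta2 was held by 1 cell and Rgs5 by 2. The summed level of these 7 markers was 0.388 to 552 CPM (median 1.14 CPM) in the cells with Eln and 0 to 516 CPM (median 0.678 CPM) in the other 35. Of 6 general fibroblast markers, a median of 3 was held both by the 11 cells with Eln and by the other 35. Within that list Col3a1 was held by 10 of 11 and 19 of 35 cells, Dcn by 8 of 11 and 28 of 35, Col1a1 by 5 of 11 and 10 of 35, Pdgfra by 4 of 11 and 21 of 35, Lum by 3 of 11 and 20 of 35, and Postn by 1 of 11 and 0 of 35. Of 8 cochlear fibrocyte markers, the medians were 3 in the cells with Eln and 5 in the others. Pou3f4, a transcription factor gene of otic mesenchyme, was held by 9 of 11 and 32 of 35. Coch was held by 6 of 11 and 32 of 35, Car3 by 4 of 11 and 27 of 35, and Otor by 3 of 11 and 18 of 35. Otos was held by 2 of 11 and 16 of 35, and Gjb2 by 4 of 11 and 16 of 35. For Slc12a2 the counts were 4 of 11 and 15 of 35, and for Gjb6 5 of 11 and 12 of 35. Of 9 osteoblast markers, the median was 2 in both, and 3 of the 11 cells with Eln and 14 of the other 35 held 3 or more. Dmp1, which encodes a bone matrix protein made by osteocytes, was held by 7 of 11 and 17 of 35, and Phex by 6 of 11 and 14 of 35. Alpl, Sp7, Runx2 and Bglap2 were held by 3 of 11 each and by 15, 13, 11 and 14 of 35. Dlx5 and Ifitm5 were held by 1 of 11 each and by 13 and 11 of 35, and Ibsp by 0 of 11 and 12 of 35. Among 5 endothelial markers, Emcn was held by 6 of 11 cells (8 of the other 35) and Cdh5 by 2 of 11 (0 of 35). Cdh5 reached 83.7 CPM in the cells with Eln. Kdr and Cldn5 had no read in any of the 11, and Pecam1 was at most 3.97 CPM in them. Of 6 chondrocyte markers, the medians were 2 in the cells with Eln and 3 in the others. Of 3 tendon and perichondrium markers, the median was 0 in both.

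Other genes of elastic fibres and microfibrils were taken from a separate list of 20, of which 16 passed the filter on low values. Between the Ibsp and Otos classes, 2 of these 16 passed the size rule as higher in Ibsp cells (4.39% of all genes) and 1 as higher in Otos cells (4.67%). Against Car3 cells, 1 was higher in Ibsp cells (4.28% of all genes) and 2 lower (3.29%). Between Otos and Car3 cells, 2 were higher in Car3 cells (2.11%) and 0 in Otos cells (3.15%). In the remaining cells, Efemp1 (3.58) and Thsd4 (3.11) were higher than in the 3 classes together, which is 2 of 16 (1.49% of all genes), and none was lower (0.847%). Against Car3 cells, 1 of 16, Adamts10, was higher (4.07, with 2.04% of all genes) and 1, Efemp2, lower (-2.25, with 2.5%). Mfap2, which encodes a microfibril protein that binds fibrillin, was held by 9 of 9 Car3, 10 of 12 Ibsp, 10 of 12 remaining and 4 of 9 Otos cells, with medians of 691, 178, 405 and 1.08 CPM. Efemp1, the gene of fibulin-3, was held by 9 of 9 Car3, 10 of 12 remaining, 6 of 9 Otos and 1 of 12 Ibsp cells, with medians of 693, 1084, 120 and 2.64 CPM. Adamts10 encodes a microfibril-binding member of the ADAMTS family. It was held by 11 of 12 Ibsp cells (median 359 CPM) and 8 of 12 remaining cells (median 76.7 CPM). Fewer Otos and Car3 cells held it, 3 of 9 and 1 of 9. Efemp2, the gene of fibulin-4, which is needed for elastin cross-linking, was held by 39 of 46 cells. Mfap5 and Adamtsl4 were picked out after their values were seen. Mfap5, another microfibril protein gene, was held by 6 cells, all of them remaining cells that also held Eln, and was highest in cells 41, 38 and 37 at 3187, 2200.1 and 682 CPM. Adamtsl4 was held by 8 cells, of which 7 were remaining cells and 7 held Eln.

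Of 6 further genes for cross-linking and copper supply, 5 passed the filter on low values, and 1 of these passed the size rule in any of the 5 comparisons. The copper importer gene Slc31a1 was higher in Ibsp and in Otos than in Car3 cells, by 3.27 and 3.29, where 4.28% and 3.15% of all genes passed. Among proteases and their inhibitors, Mmp9 and Mmp12, 2 elastase genes, had no read in any cell, and Ctss, the gene of an elastin-degrading cathepsin, was held by 4 of 4 macrophage cells (median 2129.7 CPM) and 1 other cell. Timp3, an inhibitor of matrix proteases, was higher in Car3 cells than in Ibsp and Otos cells (Ibsp minus Car3, -4.42, and Otos minus Car3, -2.62). Its reads cannot be told apart from those of Syn3, as described below. Timp2, another inhibitor, was lower in Ibsp cells than in Otos and Car3 cells (differences of -2.33 and -2.46). Of the 3 TGF-beta ligand genes, none passed the rule in any comparison. Mmp14, the gene of a membrane protease, was lower in Otos cells than in Ibsp cells (Ibsp minus Otos, 2.75) and Car3 cells (Otos minus Car3, -2.79). Ctsk, the gene of cathepsin K, was lower in remaining than in Car3 cells (-2.60). Of the 10 protease and inhibitor genes, 8 passed the filter on low values. Between the Ibsp and Otos classes, 1 of these 8 was higher in Ibsp cells (4.39% of all genes) and 1 in Otos cells (4.67%). In Car3 cells, 2 were higher than in Ibsp cells (3.29%), 2 than in Otos cells (2.11%) and 1 than in remaining cells (2.5%). None passed in the other directions. Among 7 other matrix genes, of which 6 passed that filter, the Ibsp class was higher than the Otos and Car3 classes in Fn1 (7.36 and 7.13), the fibronectin gene, in Col1a1 (6.999 and 6.24), a gene of collagen I, and in Bgn (3.63 and 2.82), the biglycan gene. Col3a1, the collagen III gene, was lower in Ibsp than in Otos and Car3 cells (-4.59 and -7.20), in Otos than in Car3 cells (-2.61) and in remaining than in Car3 cells (-2.38). Dcn, the decorin gene, was lower in Ibsp and in remaining cells than in Car3 cells (-2.19 and -2.08). Lum, the lumican gene, was lower in remaining cells than in the 3 classes together and than in Car3 cells (-2.15 and -2.32). Of the 6 matrix genes, 3 were higher in Ibsp than in Otos cells (4.39% of all genes) and 1 lower (4.67%). Against Car3 cells, 3 were higher in Ibsp cells (4.28%) and 2 lower (3.29%). In Otos cells 1 was lower than in Car3 cells (2.11%). In remaining cells 1 was lower than in the 3 classes (0.847%) and 3 than in Car3 cells (2.5%).

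The 5 genes with the pattern most like that of Eln over the 46 cells were Syn3 (rho 0.55), Serping1 (0.54), Mtch1 (0.51), Lox (0.51) and Tmtc1 (0.50). For the mean of the 10 members they were Syn3 (0.79), Timp3 (0.77), Igfbp4 (0.73), Plpp3 (0.71) and Mfap2 (0.71). Timp3 lies within Syn3 on the opposite strand, the use of strand in the counting is unknown, and the 2 had a rho of 0.94, so their reads cannot be told apart. Likewise, Eln overlaps Gm30003 (at most 95.3 CPM), Fbn1 overlaps Gm9913 (at most 18.2 CPM) and Mfap4 overlaps Mapk7 (at most 368 CPM), each on the opposite strand, and Fbn2 and Lox overlap noncoding genes that are not rows of the table.

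As a check of level, Actb stood at 665 to 7619.7 CPM in the 46 cells, Gapdh at 0.323 to 309 CPM and Eef1a1 at 2.44 to 93.0 CPM.

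Dio2, the type 2 deiodinase gene whose promoter drives the Cre, did not go with the set. Its rho with the number of members held was 0.18, and it stood at 10 CPM or more in 4 of the 11 cells with Eln and 19 of the other 35. The classes partly followed the numbers in the cell names, whose meaning the labels do not give. Cells 1 to 12 were the Ibsp class and cells 43 to 46 the macrophage class. The Car3 class was cells 13 to 19, 30 and 33, and the Otos class cells 23 to 29, 31 and 32. The remaining cells were 20 to 22 and 34 to 42. The numbering and the class, also that of the remaining cells, cannot be told apart.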

How the data were processed

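Expression was read in 46 single cells, each with its own library, with no animal named, and the cells together count as 1 sample. The values are CPM as deposited by the authors, named so per the file headers. The submitters' processing notes name STAR 2.7.3a, bcl2fastq 2 and the builds GRCm38 and mm10. For the counting program, annotation and strand setting, the entry is: not given in the sources used here. Listed genes summed to 86.4% to 93.5% of the scaled total of a cell. In each cell, dividing by the smallest step turned 100% of nonzero entries into whole reads, with a tolerance of 0.01 read. No count test was run on them because there was no second sample. The libraries carry no molecular identifiers as far as the labels state. Intervals for shares of cells use only the number of cells and treat each cell as an independent draw. They cover the error of counting cells and not the spread between mice.

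Python 3.11.15 with numpy 2.4.6, pandas 2.3.3 and scipy 1.17.1 was used. Genes at 1 CPM or more in at least 5 cells entered the comparisons, which left 11447, and all 10 members passed. The pseudocount was 1, and fold changes on the log2(CPM + 1) scale understate those of low genes. Intervals for shares of cells are exact Clopper-Pearson at 95%. Exon lengths came from GENCODE M21 and coordinates from RefSeq, both on GRCm38. The members, classes and lists were chosen with earlier results of these data known. Named were all members, the anchors, Dio2, listed genes past the size rule, the 5 most alike genes and 3 genes for a check of level. Further list and marker genes were named after their values were seen. Alternatives covered the detection limit, anchor level, pseudocount, scaling, filter and left-out cells. No doublet caller was run, because cells were picked singly.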

Additional observations from a re-analysis of the deposited data

How the results depend on the processing

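The alternatives were the detection limit, the anchor level, the pseudocount, the filter, the scaling and left-out cells. The comparisons of the remaining cells, the left-out cells and setting values under the limit to 0 were chosen after seeing the data. No difference past the size rule, and no rho of size 0.4 or more, changed sign. Below those levels the sign changed in 13 of 330 differences and 9 of 120 values of rho. At an anchor level of 100 CPM these included Fbn2 in remaining cells against the 3 classes (0.83 to -0.92) and against Car3 cells (0.73 to -1.38), Lox in remaining against Car3 cells (-0.62 to 0.57) and Eln in Ibsp against Otos cells (-0.35 to 0.17). Of 173 values that answer a comparison, 144 kept within 1.5 times or 1 SD and 29 moved.

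With a limit of 1 CPM the median macrophage cell held 2 members, and with 100 CPM the median Otos cell held 1. At 1 CPM, Fbln1 was held by 20 cells (12 before) and Mfap4 by 29 (15 before), and at 100 CPM Eln by 5 (11 before), Fbn1 by 7 (14 before) and Loxl1 by 15 (26 before). With an anchor level of 100 CPM, cell 42, which held all 10 members, joined the Ibsp class. Cells 22 and 35 joined the Car3 class and macrophage cell 43 the Otos class, and 9 remaining cells were left. At that level, 236 genes were higher in Car3 than in Ibsp cells (377 before) and 180 higher in Car3 than in remaining cells (286 before). At 5000 CPM, 1 member was higher in Ibsp than in Car3 cells, 0 in remaining than in Car3 cells and 1 in Car3 than in remaining cells. Leaving out cells with several anchors left 6 Ibsp, 9 Car3 and 0 Otos cells. The remaining cells were then set against the Ibsp and Car3 cells only, and 1 member was higher in the remaining cells. With 0 Otos cells, the Otos comparisons could not be run.

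With a pseudocount of 10, fewer genes passed: 239 and 278 (502 and 535 before) for Ibsp over Otos and the reverse, 193 and 206 (490 and 377) for Ibsp over Car3 and the reverse, and 105 and 91 (361 and 241) for Otos over Car3 and the reverse. For remaining cells over the 3 classes and the reverse they were 49 and 35 (171 and 97), and for remaining over Car3 cells and the reverse 73 and 101 (234 and 286). Then 1 member each was higher in Otos than in Ibsp cells and in remaining cells than in the 3 classes. With a pseudocount of 0.1, 575 genes were higher in Otos than in Car3 cells, 163 in the 3 classes than in remaining cells and 363 in remaining than in Car3 cells, and 1 member was higher in Ibsp than in Car3 cells, as with listed genes rescaled to a common total. The cause of these shifts was not tested.

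Leaving out 1 cell at a time gave 0 to 1 members for Ibsp over Car3, 0 to 1 for Otos over Car3, 0 to 1 for remaining over Car3 and 0 to 2 for Car3 over remaining cells. No paired analysis was possible because the labels give only 1 group. Values of a few CPM cannot be told from low background at this depth, and without an animal label the spread over cells is not the spread over mice.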
